A study of Schizosaccharomyces pombe with 36 samples.

Results

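The small nucleolar RNAs (snoRNAs) and small nuclear RNAs (snRNAs) of fission yeast, *Schizosaccharomyces pombe*, were followed through an osmotic stress time course. The members are the features whose biotype in the deposited table is snoRNA or snRNA. They number 62 of 7039 features, 55 of them snoRNAs and 7 snRNAs. Strand-specific total RNA was sequenced from cells grown in YE medium. Cells were harvested before 1 M sorbitol, an osmolyte, was added (0 min), and then at 15, 30 and 60 min and again at 120 and 180 min. One strain was labelled *atf21Δ*, for the deletion of the gene of a stress-linked transcription factor, and the other was wild type (WT). Each strain was sampled in biological triplicate at each of the 6 times, which gives 36 libraries.

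The label of the deletion strain is not borne out by its reads. At 30 min, *atf21* had from 15.4 to 30.4 RPKM in the libraries labelled *atf21Δ*, against 27.8 to 29.2 RPKM in WT libraries. RPKM is the number of uniquely mapped reads on a feature, divided by its length in kilobases and by the depth of the library. Every strain comparison here is therefore a comparison of libraries by their label.

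snoRNAs guide the chemical modification and cleavage of ribosomal RNA precursors in the nucleolus. Box C/D snoRNAs direct ribose methylation through a complex with fibrillarin, box H/ACA snoRNAs direct pseudouridylation through a complex with dyskerin (Cbf5 in yeast), and U3, U14 and snR30 are needed for cleavage of the precursor of the small ribosomal subunit RNA. The snRNAs U1, U2, U4, U5 and U6 are the RNA core of the spliceosome. All of these RNAs are stable, abundant and short, and they work as RNA and protein particles.

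The snRNA sequences are shown because they carry the stretches that recognise an intron, and because snu5 was called at more times than any other member. They were read from the RefSeq genome (ASM294v3) at the mature RNA annotated there. The capitals mark the 5′ end of U1 that pairs with 5′ splice sites (ACTTACC), the U2 stretch that pairs with the branch point (GTAGTA), the U5 loop that contacts exon ends (GCCTTTTAC), and the U6 stretch that pairs with the 5′ splice site (ACAGAGA). The positions are chrII:3020205-3020353 (plus strand) for snu1, chrI:959370-959556 (minus strand) for snu2, chrII:3236867-3236986 (plus strand) for snu5 and chrI:2562276-2562419 (minus strand) for snu6, which holds an intron of its own.
snu1: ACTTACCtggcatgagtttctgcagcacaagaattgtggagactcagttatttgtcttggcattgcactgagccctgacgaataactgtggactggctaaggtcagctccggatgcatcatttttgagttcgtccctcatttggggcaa
snu2: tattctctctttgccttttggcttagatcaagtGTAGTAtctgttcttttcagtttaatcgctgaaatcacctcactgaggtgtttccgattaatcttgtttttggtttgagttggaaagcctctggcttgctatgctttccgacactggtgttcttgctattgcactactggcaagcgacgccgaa
snu5: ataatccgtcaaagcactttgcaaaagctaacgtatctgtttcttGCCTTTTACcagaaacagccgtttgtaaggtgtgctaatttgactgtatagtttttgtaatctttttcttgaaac
snu6: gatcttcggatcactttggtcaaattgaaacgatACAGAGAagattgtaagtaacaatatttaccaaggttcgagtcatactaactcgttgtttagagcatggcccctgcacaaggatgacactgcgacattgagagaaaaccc
Of genome stretches of the same length as each RNA, read on both strands, 1.62% hold ACTTACC, 8.79% hold GTAGTA, 0.0953% hold GCCTTTTAC and 1.52% hold ACAGAGA.

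The next 5 sequences are box C/D snoRNAs, with box C (TGATGA) near the 5′ end and box D (CTGA) near the 3′ end in capitals. They are snoR69 and snoR69b, among the most abundant members, SPSNORNA.54 (snr79 in the reference annotation), which had the largest change of the class at 15 min in WT, snoU14, which has a role in pre-rRNA cleavage, and sno52, the member called lower. They lie at chrI:5387559-5387641 (plus strand), chrI:4154912-4155002 (plus strand), chrI:2705950-2706037 (plus strand), chrII:1308634-1308745 (plus strand) and chrI:339548-339642 (minus strand).
snoR69: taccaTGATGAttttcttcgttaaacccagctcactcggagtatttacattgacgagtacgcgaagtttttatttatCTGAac
snoR69b: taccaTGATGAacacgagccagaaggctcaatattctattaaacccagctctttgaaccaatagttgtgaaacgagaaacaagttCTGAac
SPSNORNA.54: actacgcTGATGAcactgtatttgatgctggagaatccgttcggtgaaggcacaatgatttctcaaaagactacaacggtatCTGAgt
snoU14: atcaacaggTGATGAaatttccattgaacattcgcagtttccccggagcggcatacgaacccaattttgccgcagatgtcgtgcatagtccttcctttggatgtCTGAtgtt
sno52: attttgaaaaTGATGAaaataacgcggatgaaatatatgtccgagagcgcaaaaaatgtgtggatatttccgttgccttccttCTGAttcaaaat
TGATGA within the first 25 bases and CTGA within the last 14 bases occur together in 0.085% of genome stretches of the length of snoR69, on either strand. snoR69 and snoR69b share a name, yet only 51.8% of their aligned positions are identical.

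snR33 and snR36 are box H/ACA snoRNAs with some of the largest changes at 15 min. The capitals mark the ACA close to the 3′ end that gives the class its name. They lie at chrII:2447904-2448048 and chrII:1957286-1957449, both on the minus strand.
snR33: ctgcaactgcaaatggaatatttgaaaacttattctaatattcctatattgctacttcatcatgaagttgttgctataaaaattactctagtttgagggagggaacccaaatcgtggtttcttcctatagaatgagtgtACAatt
snR36: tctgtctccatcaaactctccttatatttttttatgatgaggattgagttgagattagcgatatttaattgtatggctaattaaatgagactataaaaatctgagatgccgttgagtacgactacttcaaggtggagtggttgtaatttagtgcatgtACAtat
An ACA that ends 2 to 4 bases before the end of a stretch of the length of snR36 occurs in 9.76% of genome stretches on either strand.

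Of the 62 members, 26 had reads in every library, 7 had few reads and 29 had no read in any library. The 26 were 19 snoRNAs and all 7 snRNAs, with at least 380 and at most 220897 reads in a library. They took 14582004 reads over the 36 libraries, while the 7 members with few reads took 25 reads in all, at most 4 in a library.

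The 29 members without reads lie within other features of the same strand. A further feature covered 28 of them wholly and snR30 over 97.5% of its length, 12 within protein-coding genes and 17 within features annotated as ncRNA. Across the rest of the table, 145 of 145 features that are wholly covered by another feature of their strand had no reads, against 1.36% of the 5425 features with no such overlap. The 28 wholly covered members are thus listed at 0 together with every other feature placed in this way, and their zeros were read here as no measure of their level. Of the 1407 other features covered in part, 31 (2.2%) had no reads, but these were not split by how much is covered. The uncovered part of snR30 is shorter than a read, so its zero was also read as no measure of its level. The 29 include snR30, one of the cleavage snoRNAs, within SPNCRNA.906, and snoZ3, snoZ4, snoZ5, snoZ7 and snoZ8 within SPNCRNA.659. Another 3 sit within SPNCRNA.723 (snR41, snR51b and snR70). Within protein-coding genes lie snoU24b (*cpc2*), snoU24 (*spt20*), snoR39a (*rlp7*), snoR39b (*rpl701*), snoR38 (SPAC29A4.02c), snoR54 (*gua1*), snoR58 (*ade4*), snoU18 (*ero11*), snoR47 (*fta3*), snr62 (SPAC4H3.12c), snoZ15 (SPBC1D7.01) and SPNCRNA.499, which is snR191 in the reference annotation (SPAC6F6.03c). The other 8 lie within ncRNA features (snR98, snR97, snoZ16, snR90, sno16, snoZ30, snR3 and snoR68). Of the 26 with reads, snu1 shares 26.8% of its deposited span with *gpt2* and snu6 17.5% with *cwf21*, and the other 24 share none.

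The 7 members with few reads were snR96, snR95, snoR54b, snR46, snR91, snR5 and snR10. Other features cover snR91 and snR95 over 94.4% and 95.5% of their length. For snR46, snR10, snR5 and snR96 no feature overlaps on the strand of the table, and the ACA near the 3′ end is found on the complement of that strand. For snR46 the reference annotation also gives the complement, while for snR10, snR5 and snR96 it gives the strand of the table. Complements of all 4 are shown with the ACA in capitals, from chrIII:1717920-1718087, chrIII:992436-992602, chrII:2266028-2266169 and chrI:1451227-1451437, all read on the minus strand.
snR46: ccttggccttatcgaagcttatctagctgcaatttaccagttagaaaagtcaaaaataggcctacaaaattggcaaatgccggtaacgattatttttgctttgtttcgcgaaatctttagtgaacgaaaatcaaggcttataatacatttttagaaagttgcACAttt
snR10: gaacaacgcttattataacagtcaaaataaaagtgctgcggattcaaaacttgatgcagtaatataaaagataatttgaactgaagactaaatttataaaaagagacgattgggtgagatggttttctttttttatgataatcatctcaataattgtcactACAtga
snR5: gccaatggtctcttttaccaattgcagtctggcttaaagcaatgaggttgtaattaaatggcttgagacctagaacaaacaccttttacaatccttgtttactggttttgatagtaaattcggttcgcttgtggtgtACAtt
snR96: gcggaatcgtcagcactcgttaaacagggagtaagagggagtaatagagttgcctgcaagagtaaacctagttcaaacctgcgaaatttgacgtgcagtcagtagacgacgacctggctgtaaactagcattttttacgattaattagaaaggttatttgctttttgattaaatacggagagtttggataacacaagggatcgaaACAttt
On the strand of the table, 7 of the 9 H/ACA members with reads have such an ACA, and none of these 4 has one. Reads from the complement of these 4 spans were not analysed here, so their low counts give no level of the RNA.

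Depth ran from 7457173 to 20126545 uniquely mapped reads per library, with a median of 13135838 in those labelled *atf21Δ* and 12635482 in WT. snoRNAs and snRNAs together made up between 2.16% and 4.33% of feature reads in the libraries labelled *atf21Δ*, against 2.01% to 3.98% in WT. rRNA took from 34.2% to 50.7% in those labelled *atf21Δ* and from 37.5% to 57.5% in WT, after depletion of rRNA. Replicate 1 had the highest share of snoRNA and snRNA reads at 6 of 6 times in the libraries labelled *atf21Δ* and at 5 of 6 times in WT. Replicate 3 had the lowest share at 4 of 6 times in each strain. The tRNA share had a median of 6.38% in replicates 1, 4.27% in replicates 2 and 3.69% in replicates 3 labelled *atf21Δ*, against 4.42%, 3.82% and 2.65% in WT. The tests of single members below make no use of the replicate number, except where a replicate block is named.

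The 26 measured members spanned from 195 RPKM (snR101) to 17544 RPKM (snu32) in the mean of 36 libraries. snu32, a U3 snoRNA that the table lists as snRNA, ranged from 11031 to 27660 RPKM in libraries labelled *atf21Δ*, with a median of 16162 RPKM, and from 10244 to 25864 RPKM in WT, with a median of 18206 RPKM. snoR69b followed with a mean of 14188 RPKM and sno20, an H/ACA snoRNA, with 11887 RPKM. Ranges of these 3 overlap widely over the libraries. At the low end, snu5 had a mean of 1196 RPKM, snR33 of 1006 RPKM and snR101 of 195 RPKM, and the highest value of snR101 (293 RPKM) lies under the lowest of every other member. The snRNA spans of the table are longer than the mature RNAs, for example 435 bases against 120 bases for snu5 and 799 bases against 127 bases for snu4. Their RPKM is thus lower than it would be per base of the mature RNA, and their rank among members rests on that span.

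**Figure D1:**
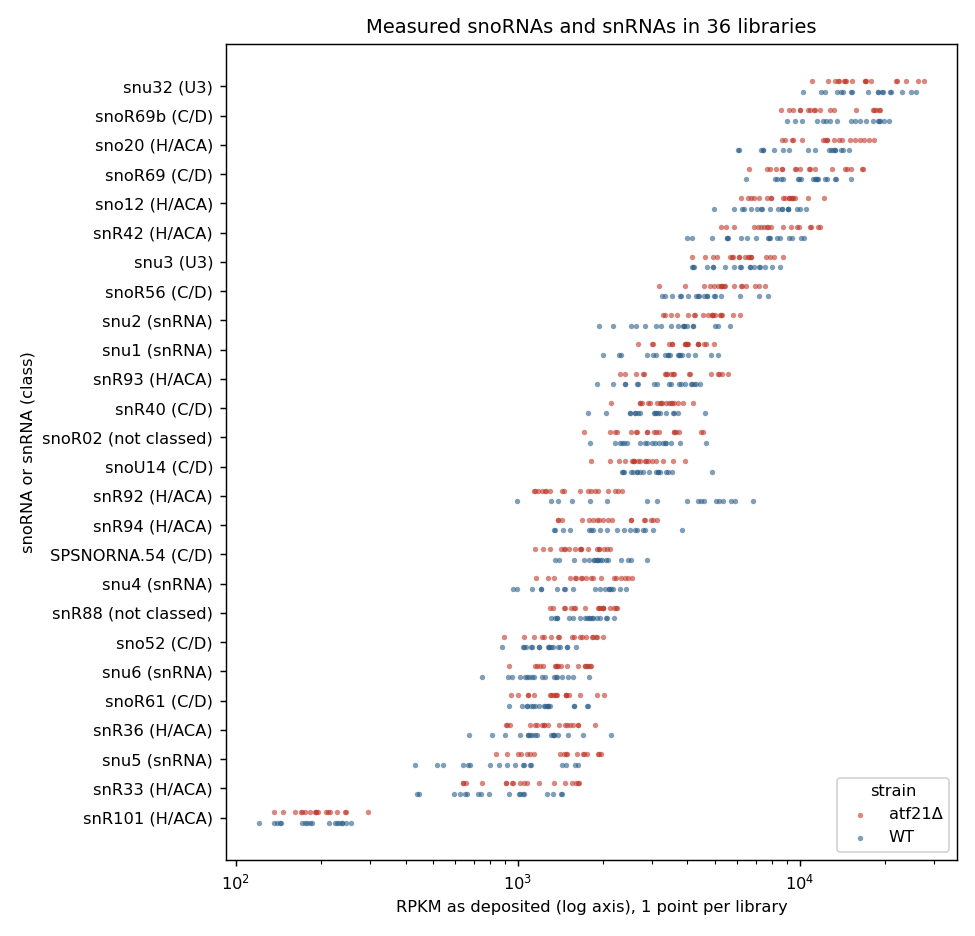
Deposited RPKM (log axis) of the 26 measured snoRNAs and snRNAs, 1 point per library, with the 18 libraries labelled atf21Δ above the 18 WT libraries in each row. snR101 stands apart at 121 to 293 RPKM, and snR92 spreads from 995 to 6828 RPKM.

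The members were compared between each time and 0 min within each strain, to ask which of them moved in the stress. Libraries were put on 1 scale with trimmed-mean factors and tested with limma over 5882 features, 26 of them members, with Benjamini-Hochberg adjusted p under 0.05 as the threshold. Changes are log2 differences of scaled RPKM after adding 0.5. At 15 min all 26 members had a log2 change above 0 in both strains, from 0.22 to 1.01 with a median of 0.65 in libraries labelled *atf21Δ* and from 0.26 to 1.18 with a median of 0.68 in WT. With 1 library left out, medians ran from 0.39 (without 15 min replicate 1) to 0.93 in libraries labelled *atf21Δ* and from 0.60 to 0.78 in WT. The median of all features tested was 0.04 in libraries labelled *atf21Δ* and 0.03 in WT. Without the scaling the direction did not hold for all members, since 20 of 26 were above 0 in libraries labelled *atf21Δ* and 16 of 26 in WT, and under quantile normalization 10 of 26 were above 0 in each. On the deposited RPKM the median of all features tested was −0.43 in libraries labelled *atf21Δ* and −0.46 in WT, while that of the members was 0.14 in both. RPKM is a share of the library, so more snoRNA per cell and less of other RNA cannot be told apart.

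Of the 26 members, 2 (snR36 and snu5) were called higher at 15 min in libraries labelled *atf21Δ*, against 15.6% of all features tested. In WT, 9 of 26 were called higher at 15 min, against 12.5% of all features. These 9 were snR33, snR94, snR42 and snR36 (H/ACA), SPSNORNA.54, snR40 and snoR61 (C/D), snR88 and snu5. The count in WT was 0 of 26 without scaling and under quantile normalization. It was 6 of 26 with scaling on protein-coding features, an alternative chosen after the data were seen. It was 19 of 26 with the replicate number as a block, against 16.0% of all features. Voom on the recovered reads gave 14 of 26, against 13.6%. In libraries labelled *atf21Δ* it was 0 of 26 without scaling and under quantile normalization. The replicate block gave 20 of 26 there, against 21.6% of all features, and voom 4 of 26, against 16.2%. Without the block, leaving out 1 library gave from 0 to 7 calls in libraries labelled *atf21Δ*. The count was 7 without 0 min replicate 1 and 0 without 0 min replicate 2, 0 min replicate 3 or 15 min replicate 1. In WT the count was 3 without 0 min replicate 2 or 15 min replicate 1, and 5 without 0 min replicate 3 or 15 min replicate 2. In WT, 20 of 26 members had every scaled value of 15 min above every one of 0 min, against 21.9% of all features. In libraries labelled *atf21Δ* this held for 6 of 26, against 24.1% of all features. The 20 in WT include snu1, snu3, snu4, snu5, snu32, snR33 and snR42, whose deposited values overlap. The values given per library below are RPKM as deposited, and whether groups overlap is said of those. The difference between the strains in these counts was not tested.

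rRNA and tRNA features moved in the same direction on the scaled level. Their medians at 15 min were 0.52 and 0.76 in libraries labelled *atf21Δ*, against 0.83 and 0.83 in WT. The part of abundant RNA as a whole in the members' change was not tested.

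**Figure D2:**
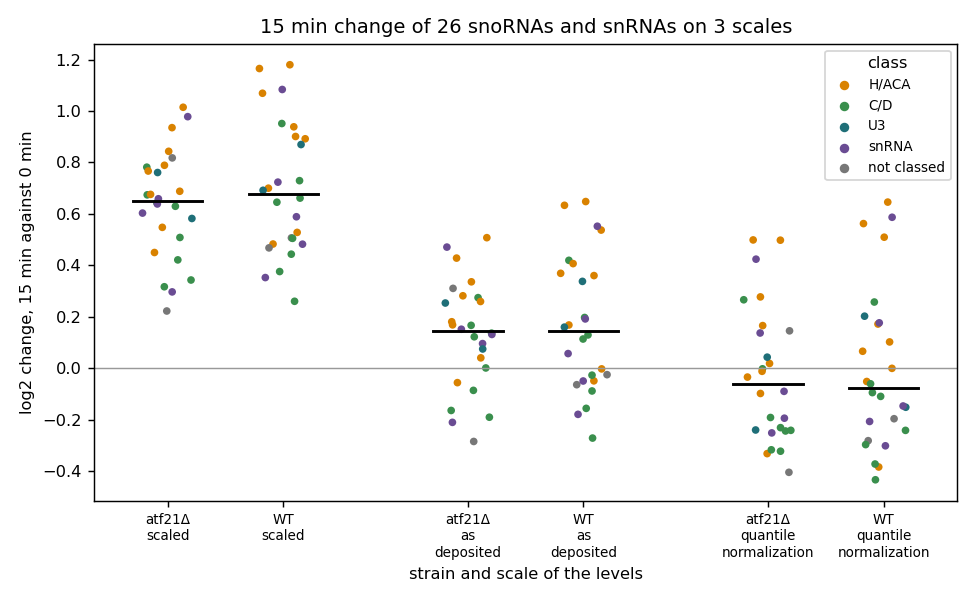
Log2 change at 15 min against 0 min of the 26 measured members (points, coloured by class; black bars are medians), on scaled RPKM, on RPKM as deposited and after quantile normalization, with libraries labelled atf21Δ left of WT. The medians are 0.65 and 0.68 when scaled, 0.14 and 0.14 as deposited, and −0.06 and −0.08 after quantile normalization.

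At 30 min the median change was 0.50 in libraries labelled *atf21Δ* and 0.32 in WT, but 0.19 and −0.08 without scaling and −0.13 and −0.09 under quantile normalization. On the first scale 26 of 26 and 25 of 26 members were above 0, without scaling 21 and 10, and under quantile normalization 7 and 9. The scaled median was 0.80 without 0 min replicate 1 and 0.30 without 30 min replicate 1 in libraries labelled *atf21Δ*. In WT it was 0.49 without 0 min replicate 1, 0.16 without 30 min replicate 1 and 0.54 without 30 min replicate 3. One member was called higher in each strain, snu5 in libraries labelled *atf21Δ* (20.0% of all features were called higher) and snoR61 in WT (15.6% of all features). From 60 to 180 min the sign of the median depended on the scaling, with 0.15 to 0.31 in libraries labelled *atf21Δ* and 0.09 to 0.20 in WT on the scaled level, and −0.14 to −0.09 and −0.39 to −0.24 under quantile normalization. Without scaling it was above 0 at these times except in WT at 180 min (−0.0079). With 1 library left out, the scaled medians lay between −0.02 and 0.60 in libraries labelled *atf21Δ*, with the values below 0 at 60 min without 0 min replicate 3 or 60 min replicate 1, and between 0.02 and 0.39 in WT. At these 3 times, 2 of 26 members were called in libraries labelled *atf21Δ* in either direction, against 24.9% of all features, and 0 of 26 in WT, against 17.4%. In WT, limma gave an unadjusted p under 0.05 in 8 of 78 of these tests, and voom on the recovered reads called 4. Under quantile normalization 15 of the 78 tests passed in WT, 14 of them lower, for 9 of 26 members in either direction, against 19.5% of all features, and in libraries labelled *atf21Δ* 4 of 26 members were called, against 25.7%. Over the whole time course, the F-test called 2 of 26 members in libraries labelled *atf21Δ* (snu5 and sno52), against 61.7% of all features, and 8 of 26 in WT (snR88, SPSNORNA.54, snoR56, sno52, snR40, snR36, snoR61 and snR94), against 51.6%. Leaving out 1 library moved the count in libraries labelled *atf21Δ* to 4 (without 0 min replicate 1) or 1 (without 0 min replicate 2, 0 min replicate 3 or 30 min replicate 1). In WT it moved to 5 without 0 min replicate 2 and to 4 without 15 min replicate 1.

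**Figure D3:**
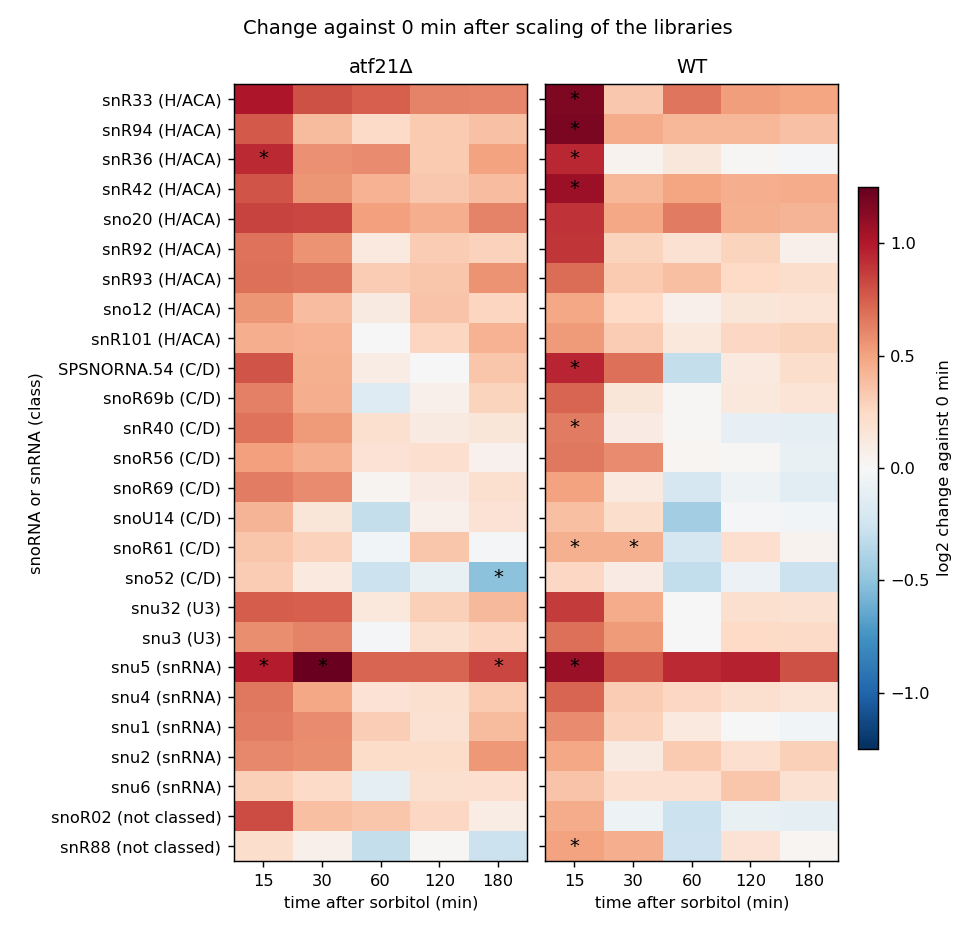
Log2 change of scaled RPKM against 0 min for each measured member (rows, by class) at 15 to 180 min, with libraries labelled atf21Δ left of WT. Asterisks mark an adjusted p under 0.05 at a single time. The 15 min columns are above 0 throughout on this scale, from 0.22 to 1.18, and snu5 stays at 0.73 or above at every time.

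Among the snRNAs, snu5 (U5, which holds the exon ends during splicing) had the largest change at each time. In libraries labelled *atf21Δ* it had 1081, 836 and 912 RPKM at 0 min, 1919.7, 1142 and 1002 RPKM at 15 min, 1936, 1702 and 1713 RPKM at 30 min and 1480.1, 1766 and 1022 RPKM at 180 min. In WT it had 974, 544 and 433 RPKM at 0 min, 1048, 1040.1 and 664 RPKM at 15 min, 1488, 518 and 641 RPKM at 30 min and 1439.8, 675 and 855 RPKM at 180 min. All 3 libraries of 30 min labelled *atf21Δ* lay above all 3 of 0 min, as for 4 of 26 members and 11.9% of all features. WT libraries of 30 min overlapped those of 0 min, and 0 of 26 members lay wholly above there, against 10.4% of all features. The log2 change at 15 min was 0.98 (standard error 0.29, limma adjusted p = 0.0217) in libraries labelled *atf21Δ*, and 1.08 (0.32, adjusted p = 0.0302) in WT. At 30 min it was 1.24 (0.29, adjusted p = 0.00478) in libraries labelled *atf21Δ*, and 0.76 (0.32, adjusted p = 0.133) in WT. At 180 min it was 0.84 (adjusted p = 0.0481) in libraries labelled *atf21Δ* and 0.80 (adjusted p = 0.115) in WT. Its change at 15 min stayed above 0 under each of the 4 scalings in both strains. The call at 15 min was lost in libraries labelled *atf21Δ* without 0 min replicate 2 (log2 change 0.86), 0 min replicate 3 (0.88) or 15 min replicate 1 (0.61). In WT it was lost without 0 min replicate 2 (1.08), 0 min replicate 3 (0.83), 15 min replicate 1 (1.02) or 15 min replicate 2 (1.01).

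**Figure D4:**
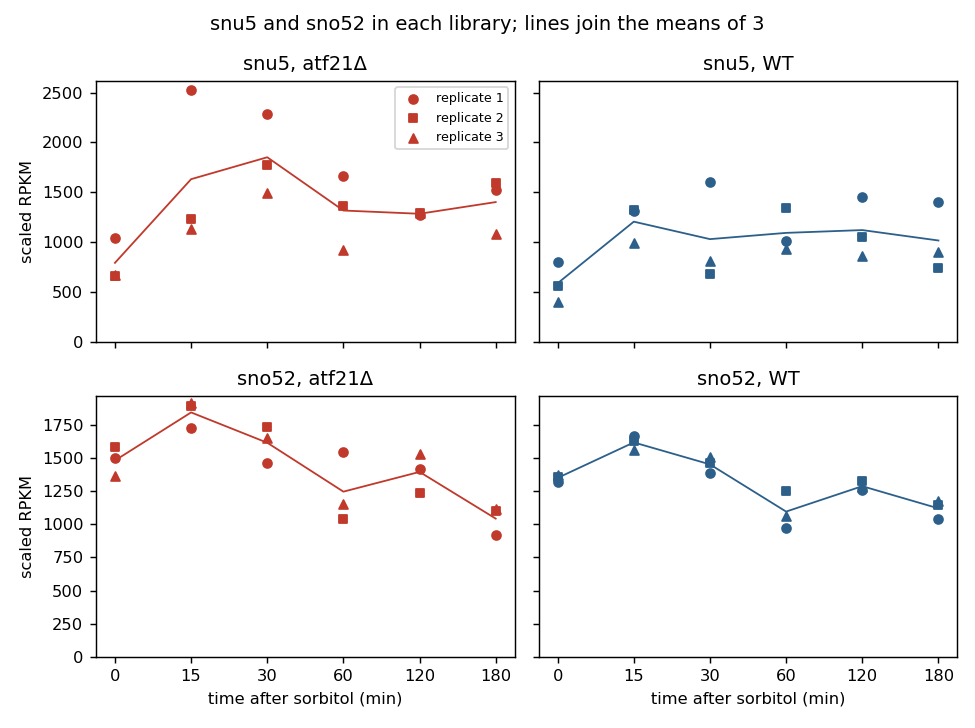
Scaled RPKM of snu5 (top) and sno52 (bottom) in each library against time (min, evenly spaced), with libraries labelled atf21Δ left of WT. Symbols are replicates and lines join the means of 3, and the mean of snu5 is above that of 0 min at each later time while sno52 has its lowest mean at 180 min in libraries labelled atf21Δ.

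snu1 (U1, which first recognises the 5′ splice site) had 3943, 3539 and 2989 RPKM at 0 min, 4590.0, 3974 and 3007 RPKM at 15 min and 4356, 3912 and 4366 RPKM at 30 min in libraries labelled *atf21Δ*. WT libraries had 5130.4, 3465 and 2324 RPKM at 0 min, 4004, 3757 and 3094 RPKM at 15 min and 4860.4, 3414 and 2004 RPKM at 30 min. Deposited values of the 3 times overlap in both strains. The log2 change of snu1 at 15 min was 0.64 in libraries labelled *atf21Δ* and 0.59 in WT, and it did not pass the test at any time. snu2 (U2, which pairs with the branch point) had 4746, 4012 and 3504 RPKM at 0 min, 5021, 4886 and 3323 RPKM at 15 min and 5809, 6124 and 3278 RPKM at 180 min in libraries labelled *atf21Δ*. The WT libraries held 4990.4, 2525 and 3103 RPKM at 0 min, 4196, 3858 and 2180.4 RPKM at 15 min and 5113, 3711 and 2622 RPKM at 180 min. These values overlap between times in each strain, and the log2 changes at 15 min of 0.60 in libraries labelled *atf21Δ* and 0.48 in WT did not pass.

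snu4 (U4, which chaperones U6) had 2451, 1748 and 1526 RPKM at 15 min, against 2234, 1589.5 and 1343 RPKM at 0 min, in libraries labelled *atf21Δ*. In WT the values were 2104, 2106 and 1213 RPKM at 15 min, against 2171, 1206 and 1376 RPKM at 0 min. The deposited groups overlap, and the log2 changes of 0.66 in libraries labelled *atf21Δ* and 0.72 in WT did not pass. snu6 (U6, of the catalytic centre) had 1369, 1729 and 929 RPKM at 15 min, against 1379, 1815 and 1360.4 RPKM at 0 min, in libraries labelled *atf21Δ*. WT values were 1095, 1381 and 744 RPKM at 15 min, against 1367, 1060.1 and 1127 RPKM at 0 min. Its log2 change at 15 min was the lowest of the 5 snRNAs, at 0.30 in libraries labelled *atf21Δ* and 0.35 in WT, and turned to −0.21 and −0.18 without scaling.

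The U3 snoRNAs are encoded by snu3 and snu32. snu32 had 17249, 13687 and 13794 RPKM at 0 min, 26304, 14334 and 14644 RPKM at 15 min and 27659.7, 17020.5 and 16987 RPKM at 30 min in libraries labelled *atf21Δ*. Levels in WT were 19735, 11863 and 17521 RPKM at 0 min, 25864, 21071 and 15198 RPKM at 15 min and 24783, 13516 and 14244 RPKM at 30 min. Replicate 1 was the highest of each of these 6 groups, and the deposited groups overlap. Its log2 change at 15 min was 0.76 (standard error 0.46, limma adjusted p = 0.284) in libraries labelled *atf21Δ* and 0.87 (0.33, adjusted p = 0.0921) in WT. snu3 had 5746, 6079 and 5793 RPKM at 0 min, 7840.2, 6109 and 4939.9 RPKM at 15 min and 8712, 6697 and 6605 RPKM at 30 min in libraries labelled *atf21Δ*. In WT it had 6660.1, 4221 and 6145 RPKM at 0 min, 6863, 7156 and 4907 RPKM at 15 min and 8508, 4936 and 5435 RPKM at 30 min. Its log2 change at 15 min was 0.58 in libraries labelled *atf21Δ* and 0.69 in WT, and neither passed. Of 48-base windows, the length of the reads, 11.9% of snu32 and 7.30% of snu3 occur elsewhere in the genome. Reads there were discarded, so both levels leave out a part of the span. No window of any other measured member occurs elsewhere. The longest run shared by the mature RNAs of snu3 and snu32 is 31 bases, shorter than a read. The span of snu3 in the table covers only a part of the mature RNA in the reference annotation.

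snoU14, a C/D snoRNA that is also needed for pre-rRNA cleavage, had 3102, 2849 and 2888 RPKM at 0 min, 3282, 2715 and 2397 RPKM at 15 min and 2587, 1817 and 2572 RPKM at 60 min in libraries labelled *atf21Δ*. WT libraries had 2348, 3187 and 4869 RPKM at 0 min, 3403, 2644 and 2929 RPKM at 15 min and 2651, 2387 and 2356 RPKM at 60 min. All 3 deposited values of 60 min lay below all 3 of 0 min in libraries labelled *atf21Δ*, although the scaled values overlap. On the scaled level 0 of 26 members lay wholly below 0 min there, against 16.8% of all features. In WT the values overlap, with replicate 3 of 0 min the highest of the 36 libraries. The log2 change at 60 min was −0.29 in libraries labelled *atf21Δ* and −0.44 in WT, and neither passed the test.

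The 9 measured H/ACA snoRNAs had a median log2 change at 15 min of 0.77 in libraries labelled *atf21Δ* and 0.90 in WT, against 0.26 and 0.37 without scaling and 0.02 and 0.10 under quantile normalization. snR33 had 1605, 907 and 958 RPKM at 15 min, against 1190.2, 639 and 638 RPKM at 0 min, in libraries labelled *atf21Δ*. The WT libraries held 1436, 1052 and 742 RPKM at 15 min, against 1017, 445 and 663 RPKM at 0 min. The deposited groups overlap in both strains, with replicate 1 highest in each of them. On the scaled level snR33 had every WT value of 15 min above every one of 0 min, as for 20 of 26 members and 21.9% of all features. Its log2 change was 1.01 (standard error 0.42, limma adjusted p = 0.103) in libraries labelled *atf21Δ* and 1.17 (0.31, adjusted p = 0.017) in WT, a call lost without 0 min replicate 2 (0.95), 0 min replicate 3 (1.15) or 15 min replicate 1 (0.98).

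snR36 had 1499, 1236 and 1571 RPKM at 15 min, against 1396, 942 and 907 RPKM at 0 min, in libraries labelled *atf21Δ*, and 2135, 1393 and 1347 RPKM, against 1709, 897 and 1121 RPKM, in WT. It was the 1 snoRNA called higher in both strains, with log2 changes of 0.94 (adjusted p = 0.0299 from limma) in libraries labelled *atf21Δ* and 0.94 (adjusted p = 0.00542) in WT. The call in libraries labelled *atf21Δ* was lost without 0 min replicate 2 (0.82), 0 min replicate 3 (0.74), 15 min replicate 1 (0.82) or 15 min replicate 3 (0.89). At 60 min its change was 0.59 in libraries labelled *atf21Δ* and 0.14 in WT, and neither passed.

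snR94 had 3016, 1905 and 2091 RPKM at 15 min, against 2968, 1693 and 1393 RPKM at 0 min, in libraries labelled *atf21Δ*, and 3825, 2641 and 2074 RPKM, against 2247, 1349 and 1795 RPKM, in WT. The WT log2 change of snR94, 1.18 (adjusted p = 0.00693 from limma), was the largest of any member at that time, while that in libraries labelled *atf21Δ* was 0.77 (adjusted p = 0.198). The call in libraries labelled *atf21Δ* was gained without 0 min replicate 1 (1.20). snR42 had 11613, 7677 and 7096 RPKM at 15 min, against 9308, 6879.6 and 5497 RPKM at 0 min, in libraries labelled *atf21Δ*, and 10395, 8511 and 6196 RPKM, against 7854, 4145 and 5508 RPKM, in WT. Its log2 change of 1.07 in WT passed (adjusted p = 0.0147 from limma) and that of 0.79 in libraries labelled *atf21Δ* did not (adjusted p = 0.194). sno20 had a log2 change of 0.84 in libraries labelled *atf21Δ* and 0.90 in WT, and did not pass. The lowest of the class at 15 min were snR101 (0.45 and, in WT, 0.53) and sno12 (0.55 and, in WT, 0.48).

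The 8 measured C/D snoRNAs had a median log2 change at 15 min of 0.57 in libraries labelled *atf21Δ* and 0.58 in WT, against 0.06 and 0.04 without scaling and −0.24 and −0.18 under quantile normalization. SPSNORNA.54 had 2024, 1589 and 2076 RPKM at 15 min, against 1914, 1296 and 1519 RPKM at 0 min, in libraries labelled *atf21Δ*. In WT the values were 2461, 2090.2 and 2869.9 RPKM at 15 min, against 1579, 1959 and 1993 RPKM at 0 min. Its deposited WT values of 15 min all lay above those of 0 min, as for 1 of 26 members, a share near the 3.23% of all features. Its log2 change was 0.78 (adjusted p = 0.0622 from limma) in libraries labelled *atf21Δ* and 0.95 (adjusted p = 0.0109) in WT. The WT call was lost without 0 min replicate 1 (0.76) or 15 min replicate 3 (0.76), and one in libraries labelled *atf21Δ* was gained without 0 min replicate 1 (1.04), 15 min replicate 2 (0.96) or 180 min replicate 2 (0.78).

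snR40 had 3846, 3517 and 2896 RPKM at 15 min, against 3227, 2750.4 and 3118 RPKM at 0 min, in libraries labelled *atf21Δ*, and 3577, 3560.0 and 3075 RPKM, against 4623, 2494 and 2679 RPKM, in WT. These deposited values overlap in WT, and the call of snR40 there (log2 change 0.65, adjusted p = 0.0464 from limma) rests on the scaling. snoR61 had log2 changes of 0.44 at 15 min (adjusted p = 0.0381 from limma) and 0.44 at 30 min (adjusted p = 0.0378) in WT, the call turning to −0.09 at 15 min without scaling. Its annotated span of 653 bases is far longer than the 82 to 112 bases of the other 7.

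sno52 was the only member called lower at any single time, and had the lowest change of the 26 at 15 min in WT. In libraries labelled *atf21Δ* it had 1553, 2004 and 1855 RPKM at 0 min, 1314, 1747 and 1694 RPKM at 15 min, 1832, 1140.1 and 1386 RPKM at 60 min and 892, 1218 and 1048 RPKM at 180 min. WT values were 1605, 1314 and 1499 RPKM at 0 min, 1334, 1287 and 1049 RPKM at 15 min, 881, 1496 and 1281 RPKM at 60 min and 1068, 1042 and 1116 RPKM at 180 min. All 3 values of 180 min lay below all 3 of 0 min in both strains. On the scaled level this held for sno52 alone, 1 of 26 members, in each strain. It held there for 11.4% of all features in libraries labelled *atf21Δ* and 10.6% in WT. The log2 change at 180 min was −0.51 (standard error 0.16, limma adjusted p = 0.0305) in libraries labelled *atf21Δ* and −0.27 (0.11, adjusted p = 0.117) in WT. It was also the 1 member that passed the F-test over time in both strains, with adjusted p of 0.00343 in libraries labelled *atf21Δ* and 0.00241 in WT.

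snR88, left unclassed here, had 1548, 1964 and 1733 RPKM at 15 min, against 2004, 2126 and 2232 RPKM at 0 min, in libraries labelled *atf21Δ*, and 1790.5, 1849 and 1574 RPKM, against 2064, 1360.0 and 1954 RPKM, in WT. All 3 deposited values of 15 min lay below those of 0 min in libraries labelled *atf21Δ*, where the median deposited change of all features was −0.43. After scaling, all 3 values of 15 min lay above those of 0 min, as for 24.1% of all features. The scaled change there was 0.22 (adjusted p = 0.454 from limma). In WT the scaled change was 0.51 (adjusted p = 0.0383), against −0.02 without scaling. The other 5 measured members (snoR56, snoR69, snoR69b, snR93 and snoR02) were called at no single time, with scaled changes at 15 min from 0.51 to 0.82 in libraries labelled *atf21Δ* and from 0.47 to 0.73 in WT. On all 4 scales and in both strains, 8 of 26 members had a change above 0 at 15 min (snR33, snR36, snR92, snR94, SPSNORNA.54, snu4, snu5 and snu32).

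The balance of the H/ACA and C/D classes within a library is not altered by a scaling factor between libraries. It was taken as the median log2 level of the 9 H/ACA snoRNAs minus that of the 8 C/D snoRNAs. In WT, the 6 libraries of replicate 3 lay from −0.94 to −0.53, those of replicate 1 from 0.13 to 0.60 and those of replicate 2 from −0.23 to 0.58. In libraries labelled *atf21Δ* the ranges were −1.04 to −0.33 for replicate 3, −0.37 to −0.09 for replicate 1 and −0.73 to 0.05 for replicate 2. WT replicate 3 did not overlap WT replicates 1 and 2 at any time. Group means ran from −0.62 to −0.35 in libraries labelled *atf21Δ* and from −0.17 to 0.13 in WT, with SDs of 0.20 to 0.80 over 3 libraries. Group means of the 6 times differed by less than these SDs in WT, and in libraries labelled *atf21Δ* the largest gap, between 0 and 60 min, was smaller than the SD of either. At 60 min, 8 of 9 H/ACA snoRNAs were above their 0 min level in libraries labelled *atf21Δ* and 9 of 9 in WT, against 4 of 8 and 3 of 8 C/D snoRNAs, without a call for any of them. Under quantile normalization these counts were 6 of 9 and 4 of 9 H/ACA, against 1 of 8 and 0 of 8 C/D snoRNAs. The H/ACA snoRNAs are also longer, from 143 to 273 bases, so class and length cannot be told apart, and libraries were size-selected on gels.

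**Figure D5:**
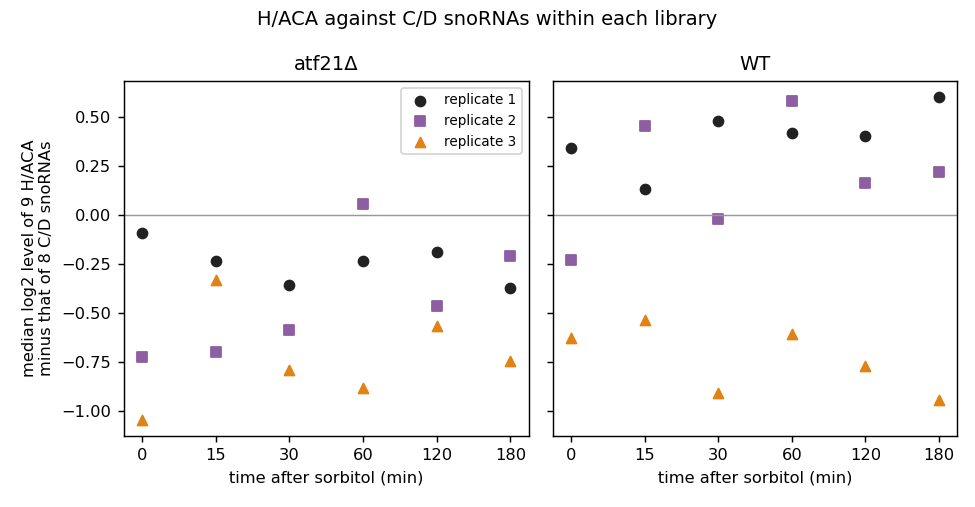
Median log2 level of the 9 H/ACA snoRNAs minus that of the 8 C/D snoRNAs in each library by time, with libraries labelled atf21Δ left of WT and symbols for replicates. WT replicate 3 lies from −0.94 to −0.53 and below WT replicates 1 and 2 at each time.

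snR92, an H/ACA snoRNA, varied most between replicates, with a standard deviation of 0.76 on the log2 scale within groups, against a median of 0.35 over the 26 members. In libraries labelled *atf21Δ* it lay from 1146 to 2334 RPKM. In WT it lay from 4372 to 6828 RPKM in replicates 1, from 2877 to 5893 RPKM in replicates 2 and from 995 to 2069 RPKM in replicates 3. WT replicate 3 was thus within or below the range of the libraries labelled *atf21Δ* at all 6 times, and WT replicates 1 and 2 were above that range at all 6. The log2 difference of libraries labelled *atf21Δ* minus WT was −1.42 at 15 min (standard error 0.58, limma adjusted p = 0.709) and −1.20 at 0 min (adjusted p = 0.865).

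The strains were then compared in level at each time and in their time courses. No member passed the strain-by-time test, for which 2 features in all were called (0.0340% of those tested) and for which the lowest unadjusted p of a member was 0.524. voom on the recovered reads called 0 members as well, and 0 of 26 had an unadjusted p under 0.05. At single times, 0 of 26 members differed between the strains, against 0.136% of all features, and 6 of 156 tests had an unadjusted p under 0.05. The lowest adjusted p was 0.517, for snu5 at 30 min, where the log2 difference was 0.93 (standard error 0.32). Medians of the members' strain differences lay between −0.13 and 0.06 over the 6 times. With 3 libraries each and the spread between replicates given above, differences of this size were not detectable, which does not show that the strains are alike.

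The share of feature reads on snoRNAs and snRNAs was 3.32% ± 0.91 (SD, n = 3) at 15 min, against 2.90% ± 0.42 at 0 min, in libraries labelled *atf21Δ*. In WT it was 3.34% ± 0.78 at 15 min, against 2.88% ± 0.75 at 0 min. Two-sided exact permutation tests gave p = 0.7 in libraries labelled *atf21Δ* and p = 0.5 in WT, with 0.1 the smallest p that 3 against 3 allows. At 30 min the share was 3.60% ± 0.61 in libraries labelled *atf21Δ* and 2.87% ± 0.94 in WT, and the exact test of this difference gave p = 0.3. The exact test cannot give a p under 0.1, so it could not decide any time or strain comparison of the share. It also takes no account of replicate number. At 30 min, replicates 1 to 3 labelled *atf21Δ* had 4.29%, 3.23% and 3.26%, against 3.38%, 2.74% and 2.58% at 0 min. WT replicates had 3.93%, 2.54% and 2.14%, against 3.68%, 2.19% and 2.76%, with replicate 3 lower. At 15 min replicate 3 was below its 0 min share in both strains. Differences within replicate numbers were not tested.

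The mRNAs of proteins that work with these RNAs were read in the same fit. Of the U3 processome, the particle that cleaves the small subunit precursor, 17 of 18 mRNAs tested fell at 30 min in libraries labelled *atf21Δ*, where 18.3% of all features fell, and 15 of 18 in WT, where 13.0% fell. Median log2 changes were −0.87 in libraries labelled *atf21Δ* and −0.77 in WT, and they were below 0 for 18 of 18 mRNAs in each strain with and without scaling and under quantile normalization. At 15 min the medians were 0.09 in libraries labelled *atf21Δ*, with 2 mRNAs called higher and 2 lower, and 0.08 in WT, with 3 called higher, and each turned below 0 without scaling and under quantile normalization. The medians of the H/ACA core mRNAs at 15 min were 0.32 in libraries labelled *atf21Δ* and 0.39 in WT, where 2 of 4 were called higher, and those of the C/D core were 0.20 in each, with 0 of 3 called. These medians too were below 0 without scaling and under quantile normalization. The difference between these mRNAs and the snoRNAs and snRNAs was not tested. At 30 min *rrp9*, which encodes a U3-specific protein, fell by 1.34 on the log2 scale in libraries labelled *atf21Δ* (limma adjusted p = 1.6e-08) and by 1.41 in WT (adjusted p = 2.44e-08). *gar1*, of the H/ACA core, fell at 30 min by 0.76 (adjusted p = 2.5e-05) in libraries labelled *atf21Δ* and by 0.78 in WT (adjusted p = 0.000106). Of the 4 H/ACA core mRNAs, 2 fell at 30 min in libraries labelled *atf21Δ* and 1 in WT. Of the 3 C/D core mRNAs found, 0 fell in libraries labelled *atf21Δ* by the adjusted test and 2 fell in WT, *fib1* (fibrillarin) by 0.39 (adjusted p = 0.00984) and *nop58* by 0.28 (adjusted p = 0.0286).

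Of 15 Sm and Lsm mRNAs, whose proteins bind snRNAs, 4 fell and 1 rose at 30 min in libraries labelled *atf21Δ*, and 1 fell in WT. Of 26 mRNAs of other snRNP proteins, 6 fell and 3 rose in libraries labelled *atf21Δ*, and 3 fell and 3 rose in WT. Of 16 mRNAs for maturation and decay, such as the exosome, 10 fell and 1 rose in libraries labelled *atf21Δ*, and 7 fell in WT. Of all features, 18.3% fell and 20.0% rose at 30 min in libraries labelled *atf21Δ*, and 13.0% fell and 15.6% rose in WT. A further list, meant for other stable RNAs and matched by symbol alone, gave 4 features tested. Among them sme2, a meiotic RNA, rose at 15 min, by log2 changes of 2.79 in libraries labelled *atf21Δ* and 3.25 in WT. hsr1 fell at 15 min, with a log2 change of −1.45 in each strain. Since only its symbol was matched, hsr1 is not read here as a stable RNA. srp7, the RNA of the signal recognition particle, had a log2 change at 15 min of 0.72 in libraries labelled *atf21Δ* and 0.99 in WT, and neither passed. rrk1, the RNA of RNase P, had 0.65 in libraries labelled *atf21Δ* (adjusted p = 0.263 from limma) and 1.23 in WT (adjusted p = 0.0238).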

How the data were processed

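Total RNA of 36 libraries (2 strains, 6 times, 3 biological replicates) was depleted of rRNA, hydrolysed, size-selected on gels and sequenced by strand. The authors aligned single-end SOLiD reads with SHRiMP2 to PomBase release 11, kept uniquely mapped reads, and deposited RPKM per feature. Whole read numbers were recovered from the RPKM, with 100% of 253404 values whole within 0.01 read. Values were multiplied by trimmed-mean factors (30% of log ratios and 5% of levels trimmed), 0.5 was added and log2 taken. The 5882 features that reached an RPKM of 1 in over 6 libraries were tested in R 4.3.3 with limma 3.58.1 (trend), each strain against its own 0 min, with Benjamini-Hochberg adjustment over features (F-test) or features and times. Strain differences and strain-by-time terms used all 36 libraries. Shares were compared by exact permutation. The fit was tested on simulated data.

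The members, classes and lists were chosen with earlier results of these data known. Chosen to be named were the snRNAs, U3, U14 and snR30, and the 3 highest and lowest in level. The 8 members with the largest and the 8 with the smallest change at 15 or 30 min were also chosen. All of those changes were above 0 on the scaled level. Not all of the chosen members are given with values per library. Alternatives were other pseudocounts, scalings and filters, limma without trend, voom, 1 fit of all libraries, a replicate block and leaving out each library. Scaling on protein-coding features was added after the data were seen. p-values cover the spread between 3 replicates. Coordinates and sequences are from RefSeq ASM294v3, in which 53 of 55 snoRNAs had the start and end of the table and 0 of 7 snRNAs did.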

Additional observations from a re-analysis of the deposited data

How the results depend on the processing

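Over the time course, 2 members were called in libraries labelled *atf21Δ*, against 1 without scaling, 1 without the filter on low values and 4 with voom on recovered reads. At single times there were 5 calls, against 2 without scaling and 3 without the filter. In WT, 8 members were called over the time course, against 0 without scaling, 5 with scaling on protein-coding features and 13 with voom. WT single times gave 10 calls, against 0, 6 and 21 under the same settings. Quantile normalization gave 15 WT calls at single times, all of them from 60 to 180 min. With the replicate number as a block, members called over time were 24 in libraries labelled *atf21Δ* (70.3% of all features) and 16 in WT (58.1%), and members called higher at 15 min were 20 (21.6%) and 19 (16.0%). Calls at single times were 49, in 21 members (67.9% of all features), and 30, in 20 members (53.2%). The labels do not say what a replicate number marks. Of 30 pairs of same-numbered groups, 20 had deviations correlated above 0.1 (range −0.16 to 0.50), and 30 of 36 libraries correlated best with their own number, a hint from the data that the numbers carry shared structure.

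Leaving out 1 library gave from 1 to 4 members changed over time in libraries labelled *atf21Δ* and from 4 to 11 in WT. At single times it gave from 1 to 13 in libraries labelled *atf21Δ*, with 13, 1 and 2 without 0 min replicates 1, 2 and 3 and 3 without 180 min replicate 1. In WT it gave from 3 to 13, with 3 and 5 without 0 min replicates 2 and 3, and 4 and 6 without 15 min replicates 1 and 2. Interaction and strain difference calls stayed at 0 in each such fit.

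Log2 changes at 15 min were below 0 without scaling in libraries labelled *atf21Δ* for snR88 −0.28, sno52 −0.19, snu6 −0.21, snR101 −0.056, snoU14 −0.086, snoR61 −0.16, and in WT for snu2 −0.049, snR88 −0.025, snoR02 −0.064, sno52 −0.27, snu6 −0.18, snR101 −0.0022, snoR69 −0.027, snoU14 −0.16, snoR61 −0.088, sno12 −0.049. Under quantile normalization this held in libraries labelled *atf21Δ* for snu2 −0.19, snR88 −0.40, snoR69b −0.24, snoR56 −0.32, sno52 −0.19, snR40 −0.0018, snu3 −0.24, snu6 −0.25, snoR69 −0.24, snoU14 −0.32, snR42 −0.012, snu1 −0.089, snR93 −0.098, sno20 −0.034, snoR61 −0.23, sno12 −0.33, and in WT for snu2 −0.30, snR88 −0.20, snoR02 −0.28, snoR69b −0.094, snoR56 −0.24, sno52 −0.37, snR40 −0.11, snu3 −0.15, snu6 −0.15, snoR69 −0.30, snoU14 −0.43, snu1 −0.21, snR93 −0.051, snoR61 −0.0601, sno12 −0.38. Scalings differ by construction in what they hold constant, and which one follows RNA per cell was not tested.

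With rRNA and tRNA left out of the total, the largest difference in mean share of reads from 0 min in libraries labelled *atf21Δ* was at 30 min. It was 1.37 percentage points (exact permutation p = 0.3). In WT the largest differences were at 15 min, 1.50 without rRNA and 1.69 without rRNA and tRNA (exact permutation p = 0.2 for each). Leaving out 1 library, differences in share from 0 min ranged in libraries labelled *atf21Δ* from −0.0865 to 0.793 at 15 min, 0.343 to 0.931 at 30 min, −0.214 to 0.701 at 60 min, 0.119 to 0.737 at 120 min and −0.11 to 0.783 at 180 min. In WT they ranged from 0.116 to 0.894 at 15 min, −0.539 to 0.394 at 30 min, −0.071 to 0.673 at 60 min, −0.0442 to 0.744 at 120 min and −0.32 to 0.525 at 180 min. Differences of libraries labelled *atf21Δ* minus WT ranged from −0.318 to 0.426 at 0 min, −0.521 to 0.359 at 15 min, 0.359 to 1.26 at 30 min, −0.461 to 0.454 at 60 min, −0.222 to 0.463 at 120 min and −0.226 to 0.747 at 180 min.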
